A study of Mus musculus with 12 samples.

Results

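The Ly6 genes encode small proteins with a shared fold of finger-like loops held by disulfide bonds, most of which sit on the outside of the cell membrane on a lipid, the glycosylphosphatidylinositol (GPI) anchor. Several of them are classical surface antigens of mouse blood cells: Ly6c1 and Ly6c2 encode the Ly6C antigen of inflammatory monocytes, and Ly6a encodes a widely used marker of blood stem cells. Ly6e is made by many cell types and restricts the entry of some viruses, while Ly6i, a close relative of the Ly6C genes, has no well-established function. Ly6a, the Ly6C genes and Ly6e are usually counted among the genes that interferons raise, and interferon beta is a known product of macrophages that meet lipopolysaccharide (LPS), the endotoxin of Gram-negative bacteria.

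The 4 members considered here were Ly6i, Ly6a, Ly6c1 and Ly6e, found by gene symbol in an array table of 18193 genes. The set was chosen by a measured value, because Ly6i stood higher in restimulated cells than in cells given LPS once. Of the 4 members, 2 (Ly6i and Ly6e) had a probe set under their own symbol alone, and where a gene had several, the brightest was used. Ly6c1 was named only by a probe set that also names Ly6c2, so its signal cannot be assigned to either gene. Ly6a was not analysed here: the annotation used gives its symbol to no probe set.

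The arrays measured RNA of C57Bl/6 mouse bone marrow cells differentiated into macrophages with macrophage colony-stimulating factor (M-CSF). Untreated cells received no LPS, LPS once cells had medium alone for 18 h and then 100 ng/ml LPS, pretreated cells had 100 ng/ml LPS for 18 h and none later, and restimulated cells had 100 ng/ml LPS at both steps. Every group had its medium exchanged and rested for 2 h between the steps, and how long the last step lasted is not stated in the labels used here. LPS once and pretreated cells thus both received a single dose, at different steps. Their comparisons with untreated cells differ in the time since that dose, so the step of the dose and this time cannot be told apart. Each group held 3 arrays, lettered A, B and C and described as biological replicates, 12 arrays in all.

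Macrophage markers were bright in every group, with a summed intensity of 9 measured markers between 56350 and 66100 on all 12 arrays. All 4 measured NK cell markers and 5 of 6 T cell markers stayed under 64 units on every array. The sum of the B cell markers ran up to 1066 units, with Ighm at up to 982.57. Of the dendritic cell markers, Itgax reached 281.77 units. The summed intensity of the 5 markers of fibroblasts and stroma went with the replicate letter. It was between 2388 and 8006 units on the A and B arrays and between 202.0 and 284.3 units on the C arrays. The restimulated C array stood apart, with a mean intensity of 246.7, where the remaining 11 ranged from 310.0 to 317.0. Over 6228 mid-range genes it lay at a median of -0.52 on the log2 scale relative to restimulated A and B. The differences of the members that rest on this array are also given without it.

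Of the genes named by the family's probe sets, Ly6c1 and Ly6c2 had promoter windows in the RefSeq table of build GRCm38.p6. They are shown because the array reads these neighbouring genes through 1 probe set. Printed is a part of the window ahead of each gene's outermost annotated start, with 167 bases for Ly6c1 and 155 for Ly6c2. These parts run 5′ to 3′ on the minus strand, at chr15:75048921-75049087 for Ly6c1 and chr15:75112067-75112221 for Ly6c2. Capitals mark runs of at least 8 bases that an alignment of both windows pairs with the same base.
Ly6c1: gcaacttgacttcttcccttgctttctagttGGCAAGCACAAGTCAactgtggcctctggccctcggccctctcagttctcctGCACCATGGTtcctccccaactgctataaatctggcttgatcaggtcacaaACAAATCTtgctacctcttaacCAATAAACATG
Ly6c2: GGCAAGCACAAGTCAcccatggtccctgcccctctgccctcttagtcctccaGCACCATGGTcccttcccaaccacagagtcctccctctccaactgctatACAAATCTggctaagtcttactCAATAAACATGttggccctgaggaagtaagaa
Over the full windows of 300 bases, 208 of 266 aligned bases were identical (78.2%). Neither gene's windows, 2 for each gene, held TTCNNTTTC (the core of the interferon-stimulated response element), TTCNNNGAA (the gamma-activated sequence), TGANTCA (AP-1) or the NF-kappaB consensus on either strand. Among all 32851 windows of this length these motifs were found in 8.56%, 8.3%, 7.81% and 8.46%, respectively. A missing match says only that these letters are not in these windows.

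Ly6i was dim in cells that had not been pretreated and bright in pretreated cells. Its probe set read 66.31, 102.36 and 85.93 intensity units in the untreated A, B and C arrays. In pretreated cells the readings were 1073.09, 3023.74 and 3070.91. The lowest pretreated array lay above the highest untreated array by a wide margin, and the groups did not overlap. On the log2(intensity + 16) scale the means were 6.64 ± 0.263 (SD, n = 3) in untreated and 11.08 ± 0.861 (SD, n = 3) in pretreated cells. The pretreatment effect was 4.44 ± 0.42 (SE), or 21.8-fold, with a limma adjusted p = 0.00106 over all genes. Folds on this scale understate the change of dim genes. A gene was called when its adjusted p was under 0.05 and its change at least 2-fold. By this rule 0.291% of all genes were called higher after pretreatment and 0.308% lower, and Ly6i had the 10th largest increase among the 53 called higher.

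This comparison uses neither of the groups that Ly6i was chosen by, apart from the shared estimate of spread. Restimulated cells had the same pretreatment, however, and arrays of the same letter deviated together across groups. The test is therefore not independent of the choice. A fit to the 6 untreated and pretreated arrays alone gave the same log2 difference with a limma adjusted p = 0.0194, the highest over the 21 alternative settings, all of which called the gene. Within replicate letters the difference was 3.73 for A, 4.68 for B and 4.92 for C. Each of these values rests on a single pair of arrays, and those of B and C were close. The stromal markers Col1a1, Col1a2 and Col3a1 were at or under 126.95 units on every C array, against 391.54 units or more on the A and B arrays. The other listed stromal markers, Dcn and Pdgfra, overlapped between the letters. From untreated C to pretreated C, Dcn went from 29.71 to 71.64 units and Pdgfra from 14.62 to 14.91. The sum of the 9 measured neutrophil and granulocyte markers was highest in letter B in every group. In pretreated cells it was 2725 units in A, 7700 in B and 4540 in C. Letter A was lowest for Ly6i there too, but Ly6i was highest in C, at 3070.91 units against 3023.74 in B. In LPS once cells the sum was 3005 units in A, 6025 in B and 2386 in C, while Ly6i was highest in A. In the remaining groups the sum and Ly6i had the same order of letters, lowest in A and highest in B. There the sum was 765.8, 4912 and 2072 units in untreated A, B and C and 2551, 6741 and 3901 in restimulated A, B and C. After pretreatment 0 of the 9 were called (1 higher at an unadjusted p under 0.05). Of the 9, 3 (Mpo, Elane and Cxcr2) were under 64 units on every array, while Ngp reached 959.17 units, Ltf 250.97 and Mmp8 3000.2. The 9 markers did not go one way: from untreated to pretreated cells the group mean of S100a8 went from 939.2 to 3104 units, and that of S100a9 from 733.5 to 296. The mean of Mmp8 went from 328.6 to 1321 units and that of Ngp from 352.6 to 76.72. The sum of 4 measured markers of inflammatory monocytes was 2497 to 2990 units in untreated and 1016 to 2028 in pretreated cells, with 0 called (1 lower at an unadjusted p under 0.05). Most of that difference lay in Cx3cr1, with group means of 1682 and 536.6 units, while Ccr2, a defining marker, had 67.96 and 85.19. The part of stromal cells, granulocytes and monocytes in the size of the rise was not tested. In bulk RNA, more expressing cells and more RNA per cell cannot be told apart.

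**Figure D1:**
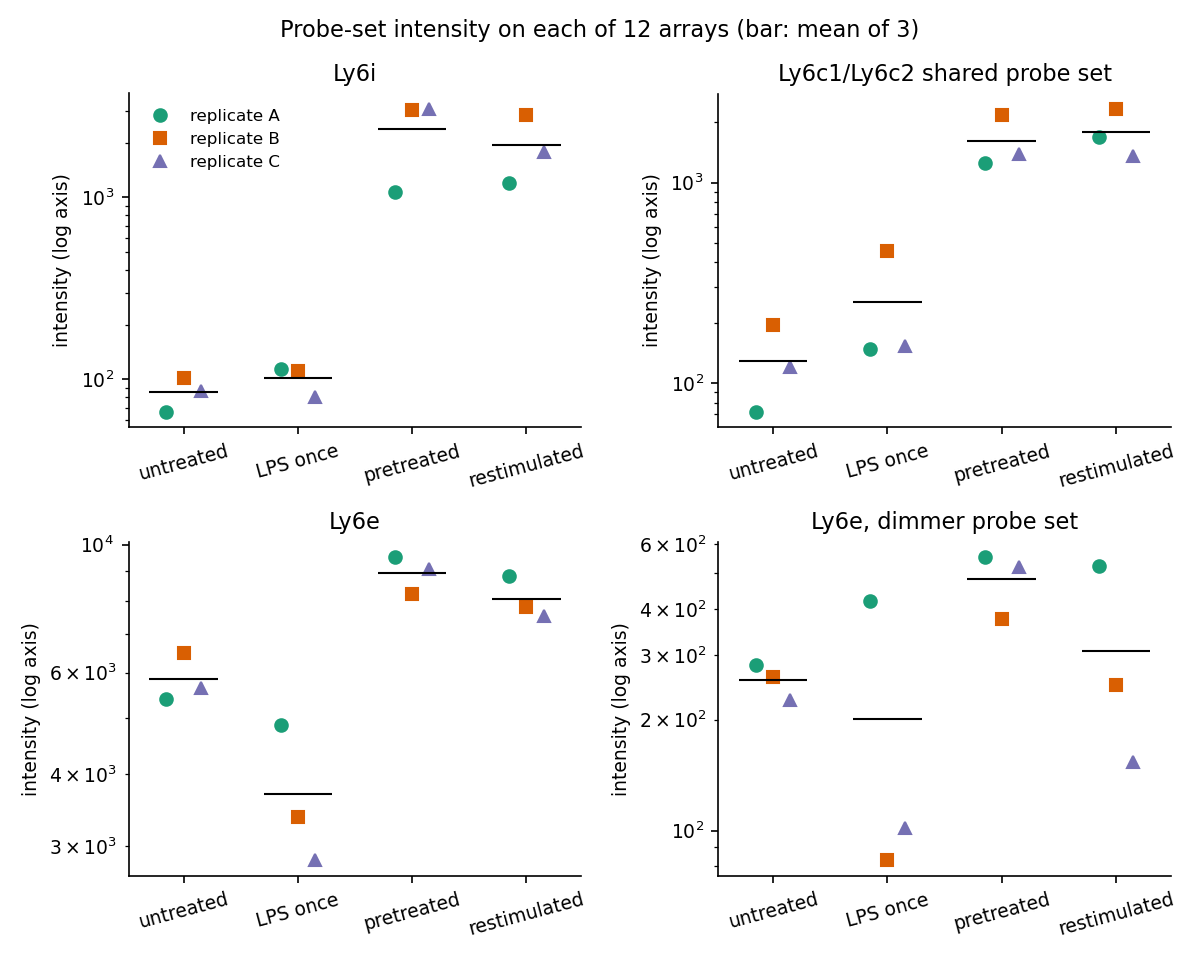
Intensity (log axis) of 4 probe sets on each of the 12 arrays, with a colour and symbol for each replicate letter and a bar at the mean of 3 arrays. Ly6i and the Ly6c1/Ly6c2 probe set sit at 1073.09 units or more on all pretreated and restimulated arrays and at 457.63 units or less on all others.

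Differences of Ly6i across the later dose of LPS were small beside that. LPS once arrays read 114.07, 111.1 and 80.22 units, within reach of the untreated arrays. Restimulated arrays read 1205.4, 2848.78 and 1773.86 units, overlapping with pretreated ones. The log2 means were 6.87 ± 0.242 and 10.85 ± 0.616 (SD, n = 3). In decreasing order the groups were pretreated, restimulated, LPS once and untreated. The largest step, between restimulated and LPS once, is the difference that the gene was chosen by. The LPS once and restimulated arrays entered the choice of the gene, so the following differences are descriptions with no test. LPS once minus untreated was 0.23 ± 0.42 (SE) on the log2 scale and ran from 0.09 to 0.37 when an array was left out. Restimulated minus pretreated was -0.24 ± 0.42, or -0.21 without restimulated C. It ran from -0.73 without pretreated A to 0.06 without restimulated A, and was 0.02 with each array scaled to the same 75th percentile, so it has no settled sign. Restimulated minus LPS once, the difference that chose the gene, was 3.98 ± 0.42, or 15.8-fold, and 4.0 without restimulated C. By letter it was 3.23, 4.49 and 4.22. The second response minus the first was -0.46 ± 0.59, or -0.44 without restimulated C, and ran from -0.96 without pretreated A to -0.17 without restimulated A. In this difference of responses 1.23% of all genes were called higher and 1.44% lower.

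The probe set shared by Ly6c1 and Ly6c2 had the same outline. It read 71.93, 194.61 and 120.85 units in untreated arrays and 148.41, 457.63 and 153.2 in LPS once arrays. Pretreated arrays read 1252.39, 2176.58 and 1386.41 units and restimulated arrays 1687.83, 2334.74 and 1360.2. Pretreated arrays lay above every untreated array, while LPS once overlapped with untreated and restimulated with pretreated. The B array was the highest in all 4 groups, as it was for the sum of neutrophil and granulocyte markers. Because it carries more than 1 symbol it was tested in a fit of all 45037 probe sets, of which 0.198% were called higher after pretreatment. It rose by 3.53 ± 0.45 (SE) on the log2 scale, or 11.5-fold, with a limma adjusted p = 0.00859, and remained called in 20 of 20 alternatives with adjusted p up to 0.047. The rise was 3.85, 3.38 and 3.36 by letter.

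In the other responses this probe set was not called. The first response was 0.79 ± 0.45 (SE) with a limma adjusted p = 0.234, where 9.76% of all probe sets were called in either direction. By letter it was 0.9, 1.17 and 0.31, and it ran from 0.29 without LPS once B to 1.11 without untreated B. With the letter as a replicate block its adjusted p was 0.0305, and it stayed short of 2-fold. The second was 0.17 ± 0.45 with an adjusted p = 0.895, where 1.12% were called, and was 0.35 without restimulated C and -0.04 without restimulated B. Its level after LPS, restimulated minus LPS once, was 2.9 ± 0.45 (7.48-fold), or 3.08 without restimulated C, described with no test because that contrast chose the set. Across the 12 arrays its Pearson r with Ly6i was 0.953, a description of arrays that share the same 4 groups. How much each of the related genes adds to this signal was not tested.

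**Figure D2:**
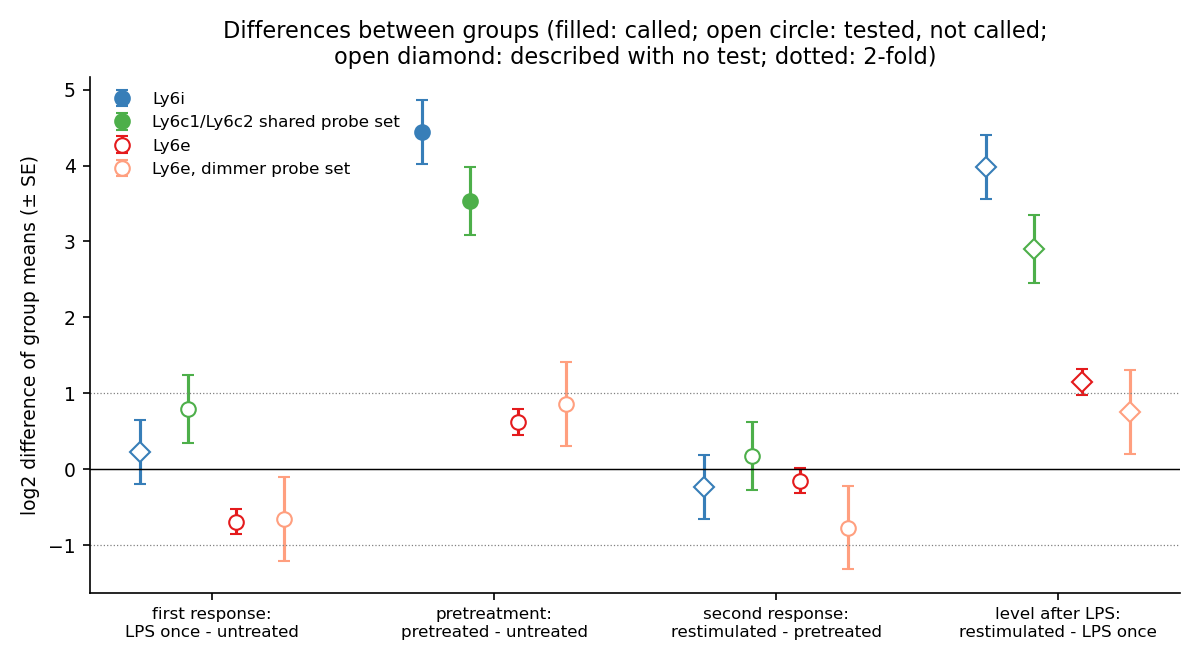
Log2 difference of group means with its standard error for the 4 probe sets in 4 comparisons, where filled points are called and diamonds are described with no test. Ly6i and the Ly6c1/Ly6c2 probe set are called in the pretreatment comparison, while both Ly6e probe sets are called in none.

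Ly6e was bright throughout and moved within a much narrower range. Its brighter probe set read 5391.59, 6479.2 and 5643.05 units in untreated arrays and 4873.41, 3370.56 and 2835.97 in LPS once arrays. It read 9511.7, 8217.94 and 9089.56 units in pretreated arrays and 8805.87, 7788.87 and 7508.54 in restimulated arrays. All LPS once arrays were below all untreated arrays, and all pretreated and restimulated arrays were above them. The log2 means were 12.51 ± 0.138, 11.82 ± 0.397, 13.13 ± 0.108 and 12.97 ± 0.12 (SD, n = 3) in the order untreated, LPS once, pretreated and restimulated. The last pair overlapped.

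None of the Ly6e differences was called. LPS once minus untreated was -0.69 ± 0.17 (SE) on the log2 scale with a limma adjusted p = 0.012, short of 2-fold. In that contrast 3.9% of all genes were called higher and 9.1% lower. With each array scaled to the same 75th percentile the value was -0.38 and the adjusted p = 0.134, the highest of the 21 alternatives, whose lowest was 0.000645 without LPS once A. That scaling moved the median of all genes in the first response from 0.043 to 0.212. Pretreated minus untreated was 0.62 ± 0.17, or 1.53-fold, with an adjusted p = 0.164. Over the 21 alternatives this adjusted p ran from 0.0357 without LPS once A to 0.412 without untreated A. It was 0.0433 in the fit to the 6 arrays of both groups, and the change stayed short of 2-fold throughout. Restimulated minus pretreated was -0.15 ± 0.17 with an adjusted p = 0.65, and -0.11 without restimulated C.

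In the second response 0.665% of all genes were called higher and 1.29% lower. That is 121 against 234 genes, and quantile normalization turned it into 173 against 163. In the first response the 709 higher and 1655 lower calls became 1079 and 1039 with the 75th percentile scaling. After pretreatment the 53 higher and 56 lower calls became 103 and 62 with that scaling. The level of Ly6e after LPS was 1.15 ± 0.17 higher in restimulated than in LPS once cells, or 2.22-fold, and 1.2 without restimulated C. By letter it was 0.85, 1.2 and 1.4. It is given without a test, as is the second response minus the first, 0.54 ± 0.24, or 0.58 without restimulated C.

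A dimmer Ly6e probe set served as a check. It read 281.32, 261.34 and 226.4 units in untreated, 419.91, 83.05 and 101.59 in LPS once, 552.56, 374.57 and 517.98 in pretreated, and 521.56, 248.42 and 153.57 in restimulated arrays. The LPS once group spanned the untreated values, since its A array was far above B and C. In the 3 tested contrasts its differences had the signs of the brighter probe set, at -0.66 ± 0.55 (limma adjusted p = 0.418), 0.86 ± 0.55 (adjusted p = 0.696) and -0.77 ± 0.55 (adjusted p = 0.515) for the first response, pretreatment and the second response. Without LPS once A the first was -1.33 with an adjusted p = 0.043 and was called, and without LPS once B it was -0.26. The second response was -0.38 without restimulated C and -1.21 without restimulated A. The second response minus the first was -0.11 ± 0.78, opposite in sign to the brighter probe set, and 0.28 without restimulated C. The level after LPS was 0.75 ± 0.55, and 1.13 without restimulated C. The r between both Ly6e probe sets over the 12 arrays was 0.782.

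Ly6e and Ly6i are neighbours on chromosome 15, in a gene order that runs from Psca to Gpihbp1 with 29 protein-coding genes. Ly6e, Ly6i, Ly6a, Ly6c1 and Ly6c2 follow each other directly in that order, taken from the RefSeq gene table of GRCm38.p6. Of the 29 genes, 17 were measured. The 15 besides Ly6e and Ly6i had group means between 12.94 and 108.2 units, and limma called 0 of them in the first response, 0 after pretreatment and 0 in the second response. Over all genes 3.9% were called higher and 9.1% lower in the first response, and 0.599% and 1.95% in either direction in the other contrasts. At an unadjusted p under 0.05 there were 7, 2 and 0 of them, respectively, beside 43.5%, 12.0% and 19.8% of all genes. Their pretreatment differences ran from -0.02 to 0.3 on the log2 scale. Probe sets this dim leave little room to see a change downwards.

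**Figure D3:**
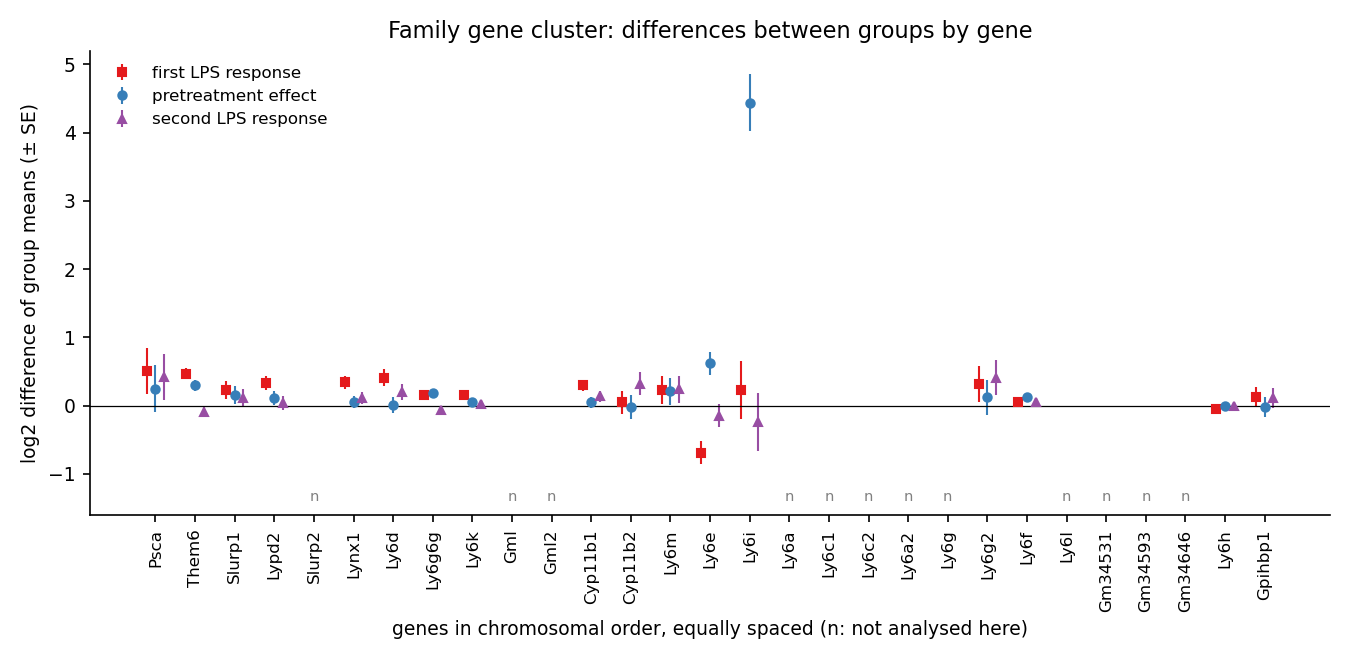
Log2 difference (± SE) in the first response, the pretreatment effect and the second response for the 17 measured genes of the family's cluster, in chromosomal order and equally spaced, with n for genes not analysed here. Ly6i stands at 4.44 in the pretreatment effect, and the 15 genes besides Ly6e and Ly6i lie between -0.09 and 0.51 in all 3 comparisons.

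Elsewhere in the family the surface receptor for urokinase, Plaur, stood out. A list of 38 further family genes had 26 measured, and 24 of these were dim, with 203.72 units as their highest single value. Plaur read 275.96, 272.28 and 222.58 units in untreated arrays and 1740.05, 2355.68 and 2381.93 in LPS once arrays, and these groups were far apart. It rose by 2.99 ± 0.38 (SE) on the log2 scale in the first response with a limma adjusted p = 0.0003. It was the 1 family gene of the 26 called higher there, with 0 called lower, a share near the 3.9% of all genes. At an unadjusted p under 0.05, 9 were higher and 0 lower, beside 19.5% and 23.9% of all genes. Pretreated arrays read 73.73, 230.35 and 80.66 units and restimulated arrays 351.74, 400.44 and 193.24.

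The Plaur difference after pretreatment was -1.08 ± 0.38 (limma adjusted p = 0.281), opposite in sign to that of Ly6i. Its second response was 1.3 ± 0.38 (adjusted p = 0.0902). That value was called without pretreated B, at 1.77 with an adjusted p = 0.0084, and under the low-value filter and both rescalings. Over all settings the adjusted p ran from 0.0084 to 0.315. In the main setting 0 of the 26 were called in either direction after pretreatment (0 higher and 2 lower at an unadjusted p under 0.05) or in the second response (3 higher and 0 lower). The complement regulator Cd59a, the other brighter gene of this list, was at -0.75 ± 0.34 in the first response (adjusted p = 0.12) and was called lower without LPS once A. Medians over the list were 0.13, 0.05 and 0.07 for the first response, pretreatment and the second response, beside 0.043, 0.019 and -0.016 over all genes. Psca, a GPI-anchored antigen first found in prostate, was at 0.25 ± 0.34 after pretreatment (adjusted p = 0.869).

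Of 28 measured genes for building and trimming the GPI anchor, 0 were called higher and 4 lower in the first response, where 9.1% of all genes were called lower. The median was -0.46, beside 0.043 over all genes. At an unadjusted p under 0.05, 1 was higher and 15 lower, beside 19.5% and 23.9% of all genes. With the 75th percentile scaling 1 was called higher and 2 lower. Mppe1, which removes an ethanolamine phosphate from the anchor, fell by 2.05 on the log2 scale (SE 0.4, limma adjusted p = 0.00341). Pgap1, which takes an acyl chain off the anchor's inositol, fell by 1.59 (SE 0.34, adjusted p = 0.00584). Pigh, a subunit of the enzyme that starts anchor synthesis, fell by 1.25 (SE 0.2, adjusted p = 0.0012), but by less than 2-fold with a pseudocount of 64 (-0.83), with its probe sets averaged (-0.92) and with the 75th percentile scaling (-1.0). The remaining call was Pigs, a subunit of the enzyme that attaches proteins to the anchor, which fell by 1.15 (SE 0.15, adjusted p = 0.00043) and was named after its value was seen.

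After pretreatment, where 0.599% of all genes were called, 0 of the 28 were (3 higher and 0 lower at an unadjusted p under 0.05), with a median of 0.09. The largest differences there were those of Pgap2, which remodels the anchor's lipid, at 1.18 ± 0.36 (limma adjusted p = 0.21), and the mannosyltransferase Pigb at 0.55 ± 0.18 (adjusted p = 0.242). Leaving out LPS once A gave 1 called higher. In the second response 1 gene, Pgap1, was called lower, by 1.58 (SE 0.34, adjusted p = 0.0352), and the median was -0.31, or -0.18 without restimulated C. That call was lost without untreated A, B or C, LPS once B or C, pretreated A or C, or restimulated C, and in the fit to 6 arrays, with adjusted p from 0.0551 to 0.224.

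A list of other leukocyte proteins, most but not all of them on the same kind of anchor, had 23 measured genes. Of these, 1 was called higher in the first response and 2 after pretreatment, with 0 called lower in either. Over all genes 3.9% and 0.291% were called higher. Bst1, a surface enzyme that acts on NAD, had a pretreatment effect close to that of Ly6i in size. It read 24.84, 19.94 and 12.61 units in untreated arrays and 602.43, 1533.53 and 304.91 in pretreated arrays, so these groups were far apart but the pretreated arrays differed widely. It rose by 4.28 ± 0.82 (SE) with a limma adjusted p = 0.0483. This call was lost without any 1 of the untreated or pretreated arrays, without LPS once B or C and without restimulated A, with adjusted p from 0.0584 to 0.184. It was also lost with a pseudocount of 64 (adjusted p = 0.0881) and with probe sets averaged (adjusted p = 0.0526).

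Vnn3, a vanin enzyme that splits pantetheine, rose by 1.19 ± 0.19 in the first response (limma adjusted p = 0.001) and by 1.38 ± 0.19 after pretreatment (adjusted p = 0.00878). Both were under 2-fold with a pseudocount of 64, at 0.77 and 0.92. The latter missed the p threshold without untreated C, at an adjusted p of 0.0532, where the list had 0 calls. Without untreated B the list had 2 calls in the first response. In the second response 0 of the 23 were called in either direction (1 higher at an unadjusted p under 0.05). There the LPS co-receptor Cd14 was at 0.74 ± 0.2 (adjusted p = 0.0776) and the prion protein gene Prnp at -0.61 ± 0.34 (adjusted p = 0.352). Medians were 0.11, 0.09 and 0.0 in the 3 contrasts.

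Ly6a, the Ly6C genes and Ly6e are usually listed beside genes known to follow interferon. These interferon genes mostly rose from untreated to LPS once cells, where no tested Ly6 probe set was called. Of 43 measured, 32 were called higher and 1 lower in the first response, with a median of 1.98, where 3.9% and 9.1% of all genes were called. The chemokine Cxcl10 rose by 6.46 ± 0.51 (SE, limma adjusted p = 2.38e-05), Oasl1, a relative of the antiviral oligoadenylate synthetases, by 5.18 ± 0.72 (adjusted p = 0.00051), and the antiviral GTPase Mx1 by 5.0 ± 0.83 (adjusted p = 0.00141). The transcription factor gene Irf8 fell by 1.84 (SE 0.24, adjusted p = 0.000356).

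After pretreatment 6 of the 43 were called higher and 0 lower, where 0.291% of all genes were called higher. An unadjusted p under 0.05 with a positive difference was found for 33, beside 5.8% of all genes, and the median was 1.39. Both comparisons rest on the same 3 untreated arrays. Irf7, a transcription factor of the interferon genes, read 290.79, 463.26 and 301.45 units in untreated and 5134.61, 4610.9 and 4676.46 in pretreated arrays, and rose by 3.74 ± 0.39 (limma adjusted p = 0.00222). Gbp2, a GTPase of cell defence, rose by 3.27 ± 0.48 (adjusted p = 0.0131) and Zbp1, a sensor of nucleic acids, by 3.12 ± 0.41 (adjusted p = 0.00777). The Gbp2 call was lost without untreated A or C or pretreated A or B, with adjusted p from 0.0517 to 0.0643. Ly6i, at 4.44, lay above every gene of this list in the pretreatment effect, and Ly6e, at 0.62, below the list's median.

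This count of 6 moved with single arrays. It was 2 without untreated A, untreated C, pretreated A or pretreated B, 3 without pretreated C, 10 without LPS once A and 14 without restimulated C. It was 16 with the letter as a block and 18 with the 75th percentile scaling. In the second response 1 gene of the list was called higher, Cxcl10 at 2.6 ± 0.51 (limma adjusted p = 0.0249), and 1 lower, Irf8, which fell by 1.21 (SE 0.24, adjusted p = 0.0262). The median was -0.13, or 0.21 without restimulated C. The Cxcl10 call was lost without pretreated A or C or restimulated A, and the Irf8 call also without restimulated C and with the 75th percentile scaling. Neither was called in the fit to 6 arrays. Their adjusted p ran up to 0.186 and 0.111, respectively.

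**Figure D4:**
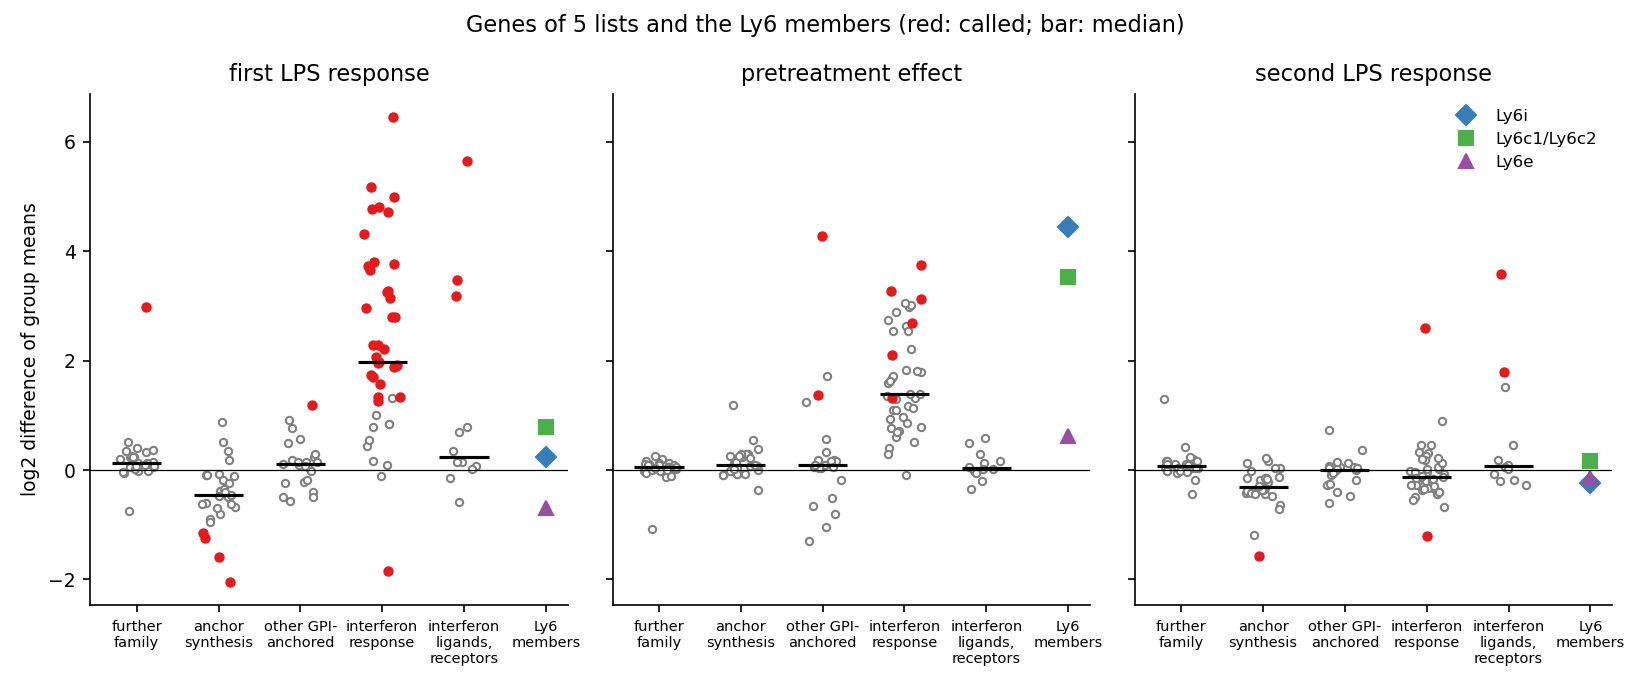
Log2 difference of each measured gene of 5 lists in the first response, the pretreatment effect and the second response (red, called; bar, list median), with Ly6i, the Ly6c1/Ly6c2 probe set and Ly6e at the right. The interferon response list has a median of 1.98 in the first response and 1.39 after pretreatment, and Ly6i lies at 0.23 and 4.44.

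Among 12 interferon ligands, receptors and their signalling genes, 3 were called higher and 0 lower in the first response, beside the same 3.9% of all genes. The cytokine signalling inhibitors Socs3 and Socs1 rose by 5.66 ± 0.36 (SE, limma adjusted p = 8.31e-06) and 3.48 ± 0.39 (adjusted p = 0.000153), and the kinase gene Jak2 by 3.19 ± 0.3 (adjusted p = 5.65e-05). After pretreatment 0 were called (1 higher at an unadjusted p under 0.05). Jak2 was then at 0.59 ± 0.3 (adjusted p = 0.495) and the interferon receptor subunit Ifnar2 at 0.49 ± 0.18 (adjusted p = 0.286). In the second response Socs3 rose by 3.58 ± 0.36 (adjusted p = 0.00247) and Jak2 by 1.79 ± 0.3 (adjusted p = 0.0137). Jak2 was not called there without pretreated C (adjusted p = 0.0668), and neither was in the fit to 6 arrays (adjusted p = 0.118 for Socs3 and 0.173 for Jak2).

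The genes whose pattern over the 12 arrays was most like that of Ly6i were named by Pearson r on the log2 scale, among the 8442 brighter genes. They were the proteasome subunit gene Psmb3 (r = 0.982), Aoah (0.981), Smpdl3b (0.964), Slamf6 (0.96) and Slpi (0.94). Aoah encodes the enzyme that removes acyl chains from LPS, Smpdl3b a GPI-anchored phosphodiesterase, Slamf6 a surface receptor of leukocytes and Slpi a secreted protease inhibitor. Psmb3 differed far less between groups, with group means of 1900, 1982, 3214 and 2966 units in untreated, LPS once, pretreated and restimulated cells. Slpi had means of 167.4, 699.9, 7225 and 7331 units, and its A arrays were the lowest in pretreated and restimulated cells, as they were for Ly6i.

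The shared Ly6c1 and Ly6c2 probe set was most like Aoah (r = 0.98), Ly6i (0.953) and Slpi (0.937). Aoah read 441.78, 670.68 and 525.54 units in untreated and 2544.16, 2913.23 and 3030.95 in pretreated arrays, and these groups were apart. Ly6e was most like Dpysl2 (r = 0.979), which encodes a microtubule-binding protein, the lectin receptor gene Clec4a2 (0.971) and Cfp (0.964), which encodes the complement protein properdin. Cfp had group means of 4055, 2810, 7325 and 6854 units, lowest in LPS once cells as for Ly6e. The r of Ly6e with Ly6i was 0.784. Each r is over 12 arrays that share 4 groups and is a description only.

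**Figure D5:**
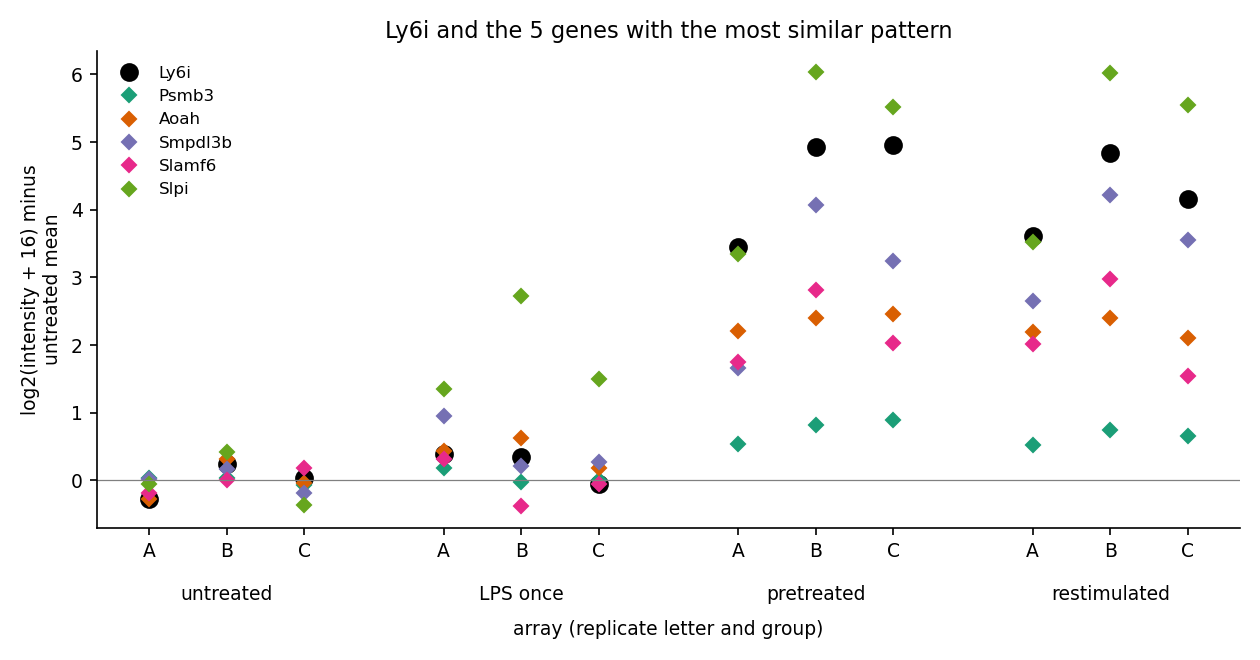
Log2(intensity + 16) minus the untreated mean on each of the 12 arrays for Ly6i (black circles) and the 5 genes most like it (diamonds). All 6 genes lie higher on the pretreated and restimulated arrays than on the untreated arrays, and Ly6i is lowest in letter A within those 2 groups.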

How the data were processed

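The authors deposited linear intensities for 45101 probe sets, of which 64 were controls, from total RNA isolated with TriFast and labelled by the Affymetrix procedure, per the labels. Their program, background correction and scaling were not given in the sources used here. Platform symbols were updated through the RefSeq gene table of GRCm38.p6 (34741 probe sets matched), which served for names and gene order only.

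Intensities were taken as log2(value + 16) with no further normalization. Of a gene's probe sets with 1 symbol, that with the highest mean log2 value over the 12 arrays was used. Group means were fitted in limma 3.58.1 (R 4.3.3) on all 12 arrays, with 8 residual and 1.71 prior degrees of freedom, and p-values were adjusted by Benjamini-Hochberg over 18193 genes, or 45037 probe sets for a probe set with several symbols or second to another. The 3 tested contrasts were LPS once minus untreated, pretreated minus untreated and restimulated minus pretreated. All adjusted p-values are limma's. They measure the spread between arrays described as biological replicates, whose sources are not further described, and 3 arrays a group limit the precision. The procedure was tested on simulated data drawn independently for each array. That test does not cover the pairing of arrays by letter described below.

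Members and lists were chosen with earlier results of these data known. Of each list, the called genes with the 3 largest changes per contrast, or the 2 largest where none was called, were named, and other values of these genes were added where they bear on a member. The genes most like a member were the 5 highest r for Ly6i and the 3 highest for each other probe set used. Promoter windows were aligned with Biopython 1.88.

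Arrays with the same letter deviated together: over 18 same-letter pairs r was 0.25 to 0.656, and over 36 other pairs -0.482 to 0.0134, so the letters pair the arrays. A fit with the letter as a replicate block was therefore among the alternatives, with other pseudocounts, a filter on low values, other scalings, an intensity trend, fewer arrays, averaged probe sets and each array left out.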

Additional observations from a re-analysis of the deposited data

Results flagged for a closer look

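The second LPS response differed from the first for 5 of the 23 named list genes, all in the lower direction, by limma's test of the difference between both responses. Of all 18193 genes, 1.23% were called higher and 1.44% lower in it. Genes were named for the size of their change in a response or after pretreatment, and those changes enter this difference, so the count of 5 describes the named genes only. On the log2 scale the second minus the first was -3.86 ± 0.72 (SE, adjusted p = 0.0213) for Cxcl10, and for Gbp2 it was -4.83 ± 0.68 (adjusted p = 0.00683). Oasl1 was at -4.92 ± 1.02 (adjusted p = 0.0308), Zbp1 at -2.83 ± 0.58 (adjusted p = 0.0294) and the GPI-anchored Vnn3 at -1.15 ± 0.26 (adjusted p = 0.0438). Without restimulated C the values were -3.45, -4.42, -4.24, -2.58 and -0.94 for Cxcl10, Gbp2, Oasl1, Zbp1 and Vnn3, and the last was then under 2-fold. Of 20 alternatives, the call held in 20 for Gbp2, 18 for Cxcl10, 12 for Zbp1, 11 for Oasl1 and 8 for Vnn3, with adjusted p up to 0.0245, 0.0617, 0.084, 0.0802 and 0.115, respectively. For Ly6i and Ly6e the same quantity was -0.46 ± 0.59 and 0.54 ± 0.24, described with no test. Groups of 3 arrays are too small for an outlier test.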

How the results depend on the processing

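Results were recomputed under up to 21 alternatives (20 for probe sets outside the gene table and for the second response minus the first), 12 of which leave out an array. Ly6i was called higher after pretreatment in all 21, with log2 differences from 3.91 to 4.94 and adjusted p from 0.000131 to 0.0194, and Ly6e was called in none in the 3 tested contrasts. With the letter as a replicate block the pretreatment difference of Ly6i was 4.44 (adjusted p = 0.000709) and that of the Ly6c1/Ly6c2 probe set 3.53 (adjusted p = 0.000664), and the block changed no call of a member. It raised the all-gene counts after pretreatment from 53 to 100 higher and from 56 to 97 lower. The second response of Ly6e turned to 0.10 with the 75th percentile scaling, and that of the Ly6c1/Ly6c2 probe set ran from -0.04 (without restimulated B) to 0.41 (without pretreated B) when an array was left out. Neither was called. The second response of Ly6i, described with no test, also turned, to between 0.01 and 0.06 without pretreated B or C or restimulated A and to 0.02 with the 75th percentile scaling. The cause was not tested. Of 21 calls of named list genes, 11 held under every alternative. All-gene counts moved as well. Leaving out an array gave 26 to 77 higher and 25 to 75 lower after pretreatment, and 60 to 167 higher and 35 to 463 lower in the second response. The fit to the 6 pretreated and restimulated arrays gave 1 higher and 0 lower there. Dim probe sets limit what can be seen of other family genes.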
